A study of Homo sapiens with 2 samples.

Results

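The genes described here encode the nuclear-encoded subunits of the mitochondrial respiratory chain and ATP synthase, complexes I to V, together with a few genes that share their symbols. They were taken by symbol from the platform's table of probe sets and genes, as genes named NDUFA, NDUFB, NDUFC, NDUFS or NDUFV plus a number, SDHA to SDHD, or with symbols beginning UQCR, COX4 to COX8 or ATP5. This gave 78 genes of the 19775 on the array, read by 152 probe sets. Another 12 probe sets that the table assigns to several genes at once were left out, and NDUFC2, NDUFS5, NDUFS8 and UQCRH were named by such probe sets alone. The study asked which genes the transcription factor T-bet regulates in KG1, an established line from a human acute myeloid leukaemia, and measured RNA on Affymetrix arrays. Cells of the siRNA-Tbet group received 1.98 µg of siRNA targeting T-bet by electroporation, and those of the siRNAc group the same amount of control siRNA. Both groups rested for 5 h and then received interleukin-18 at 10 ng/ml for 12 h, so neither is an unstimulated or untransfected control. Each group is 1 array, so no difference below has a replicate check or a p-value.

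The respiratory chain passes electrons from NADH (complex I) and succinate (complex II) through ubiquinone to complex III, and through cytochrome c to complex IV, which reduces oxygen. Complexes I, III and IV pump protons across the inner mitochondrial membrane, and complex V, the ATP synthase, uses the returning protons to make ATP. Most subunits are encoded in the nucleus, and a small set, including the proton-pumping core of complex I and the catalytic core of complex IV, is encoded in mitochondrial DNA.

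The deposited values are MAS5 signals in arbitrary units. Signals below 146.4, the higher of the medians of the arrays, were raised to that floor, and a gene counted as measured when its probe set lay above it on at least 1 array. Ratios are siRNA-Tbet over siRNAc on the log2 scale, and a signal compares 1 probe set between the arrays, not 1 gene with another. For TBX21, which encodes T-bet, the signals were 1839 (siRNA-Tbet) and 3581 (siRNAc), a log2 ratio of -0.96. Pairs of signals are given in this order throughout. Of the 6 KG1 marker genes on the array, all were measured, with signals from 2052 to 27218, CD34 at 17130 and 15839 among them. Of 9 markers of epithelium, fibroblasts, endothelium, hepatocytes and B cells, 7 were not measured, and COL1A1 (452 and 610) and COL3A1 (166 and 42) were. The 3′ to 5′ signal ratio of the actin controls was 1.2 with siRNA-Tbet and 1.22 with siRNAc, and that of the GAPDH controls 0.975 and 1.01. The poly(A) labelling controls were 3.61-fold to 15.2-fold higher on the siRNA-Tbet array, and their part in the results was not tested.

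The respiratory chain genes had nearly the same signals on both arrays, and most differences were a few percent. Of the 73 measured genes, 47 were higher and 26 were lower with siRNA-Tbet, against 46.5% higher and 53.5% lower among all 12309 measured genes. Their median log2 ratio was 0.05 (3.29% higher), and that of all measured genes was -0.02. Only 2 of the 73 differed at least 1.5-fold, COX6A2 higher and COX4I2 lower. That is 2.74% of the members, where 4.96% of all measured genes did so, 2.04% higher and 2.92% lower. Both are tissue isoforms with low signals. At 1.2-fold, 2 members were higher and 5 lower (9.59%), against 25.3% of all measured genes, 10.4% higher and 14.9% lower. Among the 68 members with signals above 1000 on both arrays, log2 ratios ran from -0.34 to 0.27, and 4 (5.88%) differed 1.2-fold, against 12.4% of the 7021 genes of all kinds above that signal.

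These genes sit at the bright end of the array, where ratios leaned upwards for genes in general. Of the 73 measured members, 44 lay in the top decile of signal (above 9245), and 15 in the decile below it. In the top decile the median log2 ratio of all 1231 genes was 0.04, with 65.7% higher. The 44 members there had a median of 0.06, with 36 higher (81.8%) and 8 lower. In the decile below, 46.2% of all genes and 5 of 15 members (33.3%) were higher, with medians of -0.01 and -0.04. The ratios of the 44 top-decile members spread by an SD across genes of 0.08, against 0.12 for all genes of that decile. Once the trend of the ratio with signal was removed by lowess, 37 members were higher and 36 lower (median 0.0013). After quantile normalization 36 were higher and 35 lower. Under these settings 47.0% and 47.1% of all measured genes were higher.

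**Figure D1:**
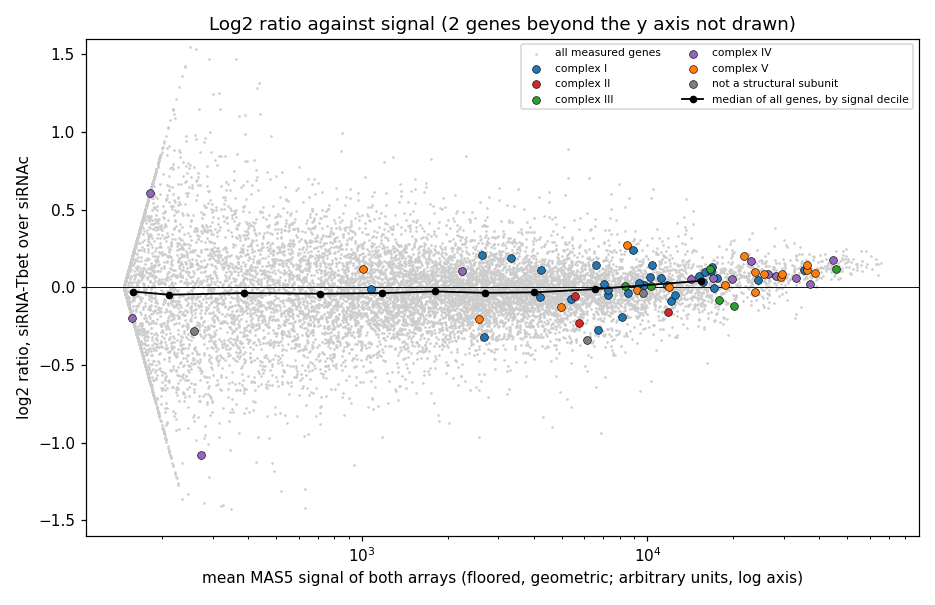
Log2 ratio of siRNA-Tbet over siRNAc against the mean MAS5 signal for all measured genes (grey) and for the respiratory chain genes coloured by complex; the black line joins the medians of all genes in 10 signal deciles. The line rises from -0.01 to 0.04 between the last 2 deciles, where most of the coloured points lie, and the complex II genes (red) lie below 0.

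The promoters of these genes were searched for a few short motifs. Nuclear respiratory factor 1 (NRF1), GA-binding protein (GABP) and YY1 are transcription factors known to act on many genes of oxidative phosphorylation. RefSeq windows on GRCh38.p14, from 250 bases before to 50 after a gene's start, were found for 65 of the 78 genes and were searched on both strands, with overlaps between motifs allowed. Shares are of genes with at least 1 window, for members, for the genes measured on these arrays and for all 27305 genes. The NRF1 motif occurred in 16 of the 65 genes (24.6%, against 13.2% of measured and 6.98% of all genes), and 5.78% of all 35116 windows held it. The GABP letters CCGGAAG occurred in 19 genes (29.2%, against 22.1% and 12.2%) and the YY1 letters AAGATGGC in 11 (16.9%, against 6.42% and 3.52%). The SP1 letters GGGCGG were found in 64.6% of members, 74.3% of measured genes and 48.3% of all genes. The CCAAT box was found in 36.9%, 43.1% and 39.7%, and the TATA box letters TATAAA in 10.8%, 8.71% and 13.99%. At least 1 of the NRF1, GABP and YY1 motifs was found in 38 of 65 genes (58.5%, against 35.9% of measured genes), and no enrichment was tested. Of these 38, 37 were measured, 25 of them higher with siRNA-Tbet, with a median log2 ratio of 0.06. Of the 26 measured genes with none of these motifs, 17 were higher, with a median of 0.03. A match is a string of letters and not a shown binding site.

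The stretches shown are those of the bright genes with such a match that had the 3 lowest and the 3 highest ratios, and of complex II, so that the letters can be read beside the values. They are given 5′ to 3′ on the gene's strand, from RefSeq on GRCh38.p14, with the NRF1, GABP and YY1 matches inside the stretch in capitals. A further YY1 match of ATP5PO and a further NRF1 match of SDHA lie in the same windows, outside the stretches. From the lowest ratio to the highest, they are NDUFS7 (chr19:1383879-1383931, plus strand), NDUFA9 (chr12:4648989-4649131, plus), ATP5MG (chr11:118401562-118401613, plus), SDHD (chr11:112086718-112086817, plus), SDHA (chr5:218109-218271, plus), NDUFB7 (chr19:14572067-14572135, minus), ATP5PO (chr21:33915805-33915873, minus) and NDUFS4 (chr5:53560615-53560667, plus).
NDUFS7: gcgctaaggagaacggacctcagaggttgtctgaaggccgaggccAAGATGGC
NDUFA9: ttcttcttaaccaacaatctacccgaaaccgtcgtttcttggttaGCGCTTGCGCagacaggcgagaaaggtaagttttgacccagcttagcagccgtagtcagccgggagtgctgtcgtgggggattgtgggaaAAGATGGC
ATP5MG: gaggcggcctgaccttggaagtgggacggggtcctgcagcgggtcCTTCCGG
SDHD: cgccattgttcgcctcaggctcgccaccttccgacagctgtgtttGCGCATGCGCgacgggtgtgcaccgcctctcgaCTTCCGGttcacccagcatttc
SDHA: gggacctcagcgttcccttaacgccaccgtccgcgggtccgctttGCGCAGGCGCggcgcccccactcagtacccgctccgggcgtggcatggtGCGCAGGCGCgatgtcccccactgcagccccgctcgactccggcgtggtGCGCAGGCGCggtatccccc
NDUFB7: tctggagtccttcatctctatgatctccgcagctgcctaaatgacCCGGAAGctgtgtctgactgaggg
ATP5PO: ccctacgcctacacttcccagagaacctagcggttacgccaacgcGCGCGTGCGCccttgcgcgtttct
NDUFS4: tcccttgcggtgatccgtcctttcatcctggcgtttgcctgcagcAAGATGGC
The capitals in NDUFS7 and NDUFS4 are the same YY1 letters, and these genes had log2 ratios of -0.32 and 0.21. NDUFA9 holds an NRF1 match read from the other strand and a YY1 match, ATP5MG and NDUFB7 a GABP match each, and ATP5PO an NRF1 match on the other strand. SDHD has an NRF1 match that reads the same on both strands, followed by a GABP match, and the SDHA stretch has 3 NRF1 matches. The stretches were chosen from both ends of the ratios, so matches in genes on both sides of 0 follow from that choice.

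The 3 genes of complex II measured here, SDHA, SDHC and SDHD, were all lower with siRNA-Tbet. Complex II is succinate dehydrogenase, an enzyme of the citric acid cycle as well as of the respiratory chain. SDHA carries the flavin and the succinate-binding site, and SDHC and SDHD anchor the enzyme in the membrane. SDHC had signals of 5335 and 6263, 14.8% lower (log2 ratio -0.23). SDHD had 11125 and 12443, 10.6% lower (-0.16). SDHA had 5485 and 5700, 3.78% lower (-0.06), on a cross-hybridising probe set, and since the genome holds near-identical SDHA pseudogenes its value is uncertain. The gene median of complex II was -0.16, while the medians of the other complexes lay between 0.01 and 0.09.

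SDHC was read by 7 measured probe sets, and each gave a lower signal with siRNA-Tbet, with log2 ratios from -0.33 to -0.07. The next brightest of them had 3700 and 4325, and 3379 and 4208, both on cross-hybridising probe sets, and then 2375 and 2632. The dimmer ones had 485 and 610, 450 and 527, and 155 and 162. Of all 72 genes with at least 7 measured probe sets, 4 (5.56%) were lower on every one of them and 4 were higher on every one. In all, 9 of 9 measured probe sets of complex II were lower, cross-hybridising ones among them, where 51.4% of all measured probe sets were. Probe sets of a gene share the same RNA, so their agreement bears on the measurement and not on the spread between cultures. On the probe set that stands for each gene, no member of complex II differed 1.2-fold. Among all measured genes 14.9% were lower by that much, and among the 7021 above 1000 on both arrays 531 were. SDHC did pass 1.2-fold on the probe sets with 3379 and 4208 (1.25-fold lower) and with 485 and 610 (1.26-fold lower). Under each of the 11 alternative settings for scale, floor and probe set, no complex II gene was higher, and the median of complex II ran from -0.25 to -0.14, with SDHC alone behind it where second-brightest probe sets were used.

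**Figure D2:**
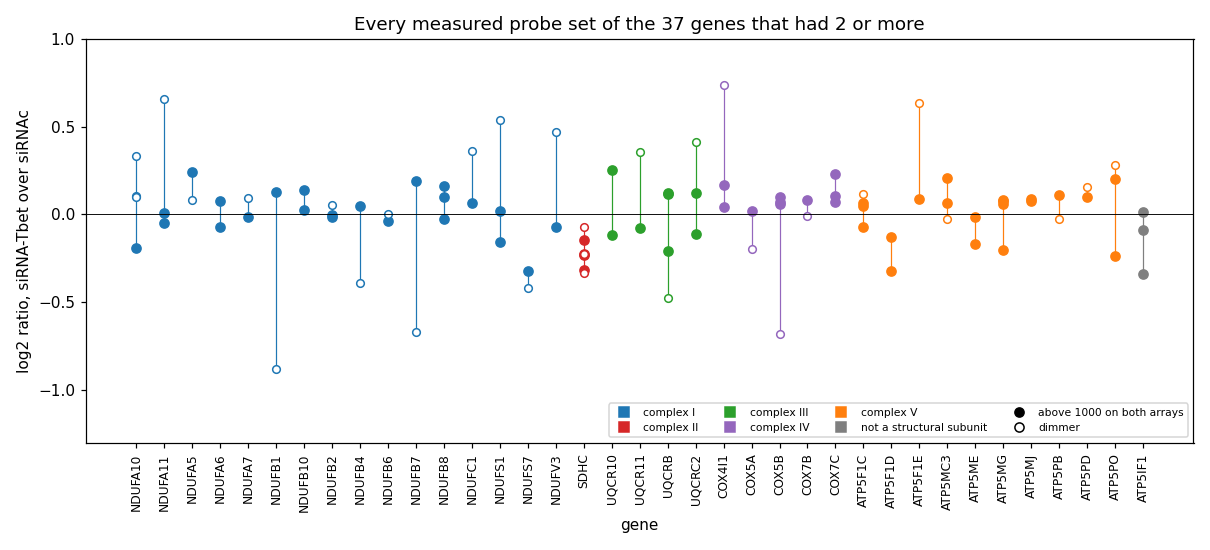
Log2 ratio of siRNA-Tbet over siRNAc at every measured probe set of the 37 respiratory chain genes with 2 or more (x axis, grouped by complex); filled points have signals above 1000 on both arrays and open points are dimmer. All 7 probe sets of SDHC lie below 0, and the open points spread far more than the filled ones.

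Complex I, NADH dehydrogenase, showed no common direction. All 32 of its genes were measured, 20 of them higher and 12 lower, and their median log2 ratio was 0.03. On the probe set that stands for each gene, the catalytic subunits hardly differed, apart from NDUFS7. These subunits carry the flavin and the iron-sulphur clusters or line the quinone site. NDUFV1, which holds the flavin, had signals of 11422 and 10952 (0.06). NDUFV2 had 11740 and 11616 (0.02), NDUFS1 had 7090 and 6995 (0.02), and NDUFS3 had 9773 and 9651 (0.02). The second-brightest probe set of NDUFS1 was lower (1262 and 1407, -0.16), and a dim one was higher (288 and 198, 0.54). NDUFS7, which carries the cluster that hands electrons to ubiquinone, had 2399 and 2999 (-0.32). Its second, dim probe set was also lower (156 and 209, -0.42).

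The accessory subunits of complex I lay on both sides of 0. The other genes with the lowest ratios were NDUFA9, which helps join the peripheral and membrane arms (6096 and 7360, -0.27), and NDUFA10 (7656 and 8727, -0.19). NDUFA10 had 3 dim probe sets, which were all higher (0.11, 0.10 and, with the siRNAc signal raised to the floor, 0.33). The highest were NDUFA5 (9699 and 8196, 0.24), NDUFS4 (2840 and 2458, 0.21) and NDUFB7 (3543 and 3101, 0.19). NDUFS4 is an accessory subunit of the NADH-oxidising arm, and NDUFA5 sits in the peripheral arm. NDUFA5 was also higher on its second probe set (420 and 396, 0.08), but NDUFB7 was lower on its second (116 and 233, -0.67 with the lower signal raised to the floor). Of the 12 measured A-series genes 6 were higher, with a median of 0.03. Of the 11 B-series genes, which build the distal part of the membrane arm, 7 were higher, with a median of 0.05. NDUFB9, with the highest complex I signals, had 36875 and 34138 (0.11).

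Complex III, which passes electrons from ubiquinol to cytochrome c, had 6 measured genes with a median log2 ratio of 0.01. Its genes were split into 4 higher and 2 lower. UQCRC1 and UQCRC2 encode the core proteins on the matrix side. UQCRC1 had signals of 10323 and 10247 (0.01), and UQCRC2 had 17206 and 15835 (0.12). The second bright probe set of UQCRC2 went the other way (12026 and 12973, -0.11). UQCRB, which contributes to ubiquinone binding, had 47702 and 43977 (0.12), and a dimmer probe set of it had 1993 and 2301 (-0.21). UQCRQ had 8381 and 8314 (0.01). The small subunits UQCR10 (19334 and 21005, -0.12) and UQCR11 (17283 and 18255, -0.08) were lower on their brightest probe set and higher on the other (0.26 and 0.35). In this complex, 4 of 6 genes thus had probe sets on both sides of 0, and their direction depends on the probe set.

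The ubiquitous subunits of complex IV, cytochrome c oxidase, lay on the same side of 0 on the deposited scale. The 10 ubiquitous genes COX4I1, COX5A, COX5B, COX6A1, COX6B1, COX6C, COX7A2, COX7B, COX7C and COX8A were each higher on the probe set that stands for the gene, by 1.31% to 12.9%. The highest ratios belonged to COX6C (47607 with siRNA-Tbet and 42150 with siRNAc, 0.18) and COX4I1 (24369 and 21659, 0.17), and the lowest to COX5A (37321 and 36839, 0.02). Each of the 15 probe sets of complex IV above 1000 on both arrays was higher, with log2 ratios from 0.02 to 0.23 and an SD of 0.06. Among all measured probe sets 48.5% were higher, and among the 12584 above 1000 on both arrays 6292 were. Of all genes in the top decile of signal, 65.7% were higher. Dim second probe sets of COX5A (838 and 962, -0.20), COX5B and COX7B (638 and 641, -0.0070) were lower. These genes are among the brightest on the array. With the lowess trend removed, the ubiquitous genes COX5A (-0.07), COX6A1 (-0.03) and COX7A2 (-0.0041) were lower. Of the 13 measured genes of complex IV, tissue isoforms included, 8 were then higher, with a median of 0.01 in place of 0.06. After quantile normalization 9 of the 13 were higher, with a median of 0.02, and COX5A (-0.10) and COX6A1 (-0.05) were lower.

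Several complex IV subunits exist as tissue isoforms, and the isoforms typical of other tissues were near or below the floor. COX4I2, the isoform of subunit 4 best known from lung, had signals of 188 and 396. It was 2.11-fold lower (-1.08), the lowest ratio among members above the floor on both arrays and the only member past 2-fold with the floor, where 0.569% of all measured genes were. With no floor COX6B2 (-1.67), COX8C (-1.53) and ATP5MF (-1.42) had lower ratios, at signals where no order can be read. COX6A2, the isoform of heart and skeletal muscle, had 223 and 136, at least 1.53-fold higher because the siRNAc signal was raised to the floor. COX6B2, the testis isoform, had 53 and 168, at least 1.15-fold lower. COX7A1, of heart and muscle (15 and 25), COX7B2 (87 and 68) and COX8C (5.6 and 16) were below the floor on both arrays. The ubiquitous partner of COX4I2, COX4I1, was 12.5% higher (0.17). The partners of the others, COX6A1 (33701 and 32394, 0.06), COX6B1 (14514 and 13971, 0.05), COX7A2 (28858 and 27464, 0.07), COX7B (27115 and 25577, 0.08) and COX8A (20103 and 19343, 0.06), were higher by 3.89% to 6.02%. Each of the isoforms COX4I2, COX6A2 and COX6B2 was read by 1 probe set at a signal where the SD of log2 ratios over all genes was 0.25 to 0.50.

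**Figure D3:**
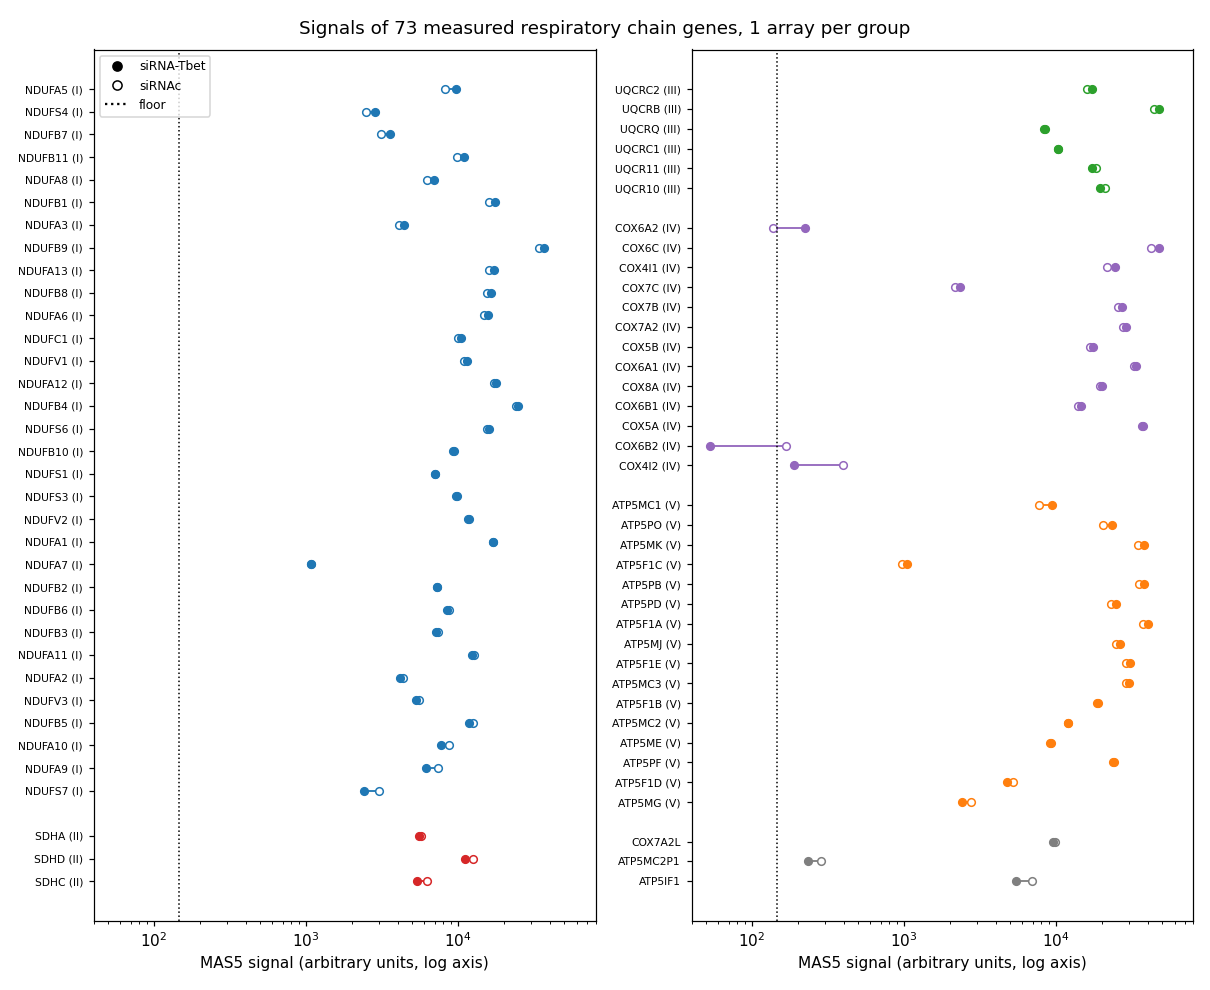
MAS5 signals (x axis, log scale, arbitrary units) of the 73 measured respiratory chain genes on the siRNA-Tbet array (filled) and the siRNAc array (open), with the complex in brackets and genes ordered by ratio within each complex; the dotted line is the floor of 146.4. Most pairs nearly coincide, and the widest gaps are those of COX4I2, COX6A2 and COX6B2 beside the floor.

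Complex V, the ATP synthase, had a median log2 ratio of 0.09 on the deposited scale, with 12 of 16 measured genes higher. That direction depends on the scaling. After quantile normalization 6 of the 16 were higher and the median was -0.0084, and with the lowess trend removed 8 were higher and the median was 0.0034. In the catalytic F1 head, ATP5F1A (alpha) had signals of 39899 with siRNA-Tbet and 37390 with siRNAc (0.09) and ATP5F1B (beta) 18820 and 18610 (0.02). ATP5F1E (epsilon) had 30444 and 28674 (0.09), while ATP5F1D (delta) was lower on both of its probe sets (4748 and 5187, -0.13, and 1315 and 1641, -0.32). The ring that turns with the proton flow is built from copies of subunit c, encoded by ATP5MC1, ATP5MC2 and ATP5MC3 as precursors of the same mature protein. ATP5MC1 had 9351 and 7733, 20.9% higher (0.27), the highest ratio among the bright members. ATP5MC3 had 29916 and 28595 (0.07) on its brightest probe set and 29675 and 25719 (0.21) on the next. A dimmer probe set of ATP5MC3 had 978 and 997 (-0.03). ATP5MC2 had 11936 and 11894 (0.01).

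In the peripheral stalk, which holds the head still, ATP5PO had 23341 and 20256 (0.20), ATP5PB 37663 and 34892 (0.11), ATP5PD 24718 and 23052 (0.10) and ATP5PF 23472 and 23965 (-0.03). A cross-hybridising probe set of ATP5PO had 3125 and 3677 (-0.23), so its direction depends on the probe set. Among the small membrane subunits, ATP5MK was higher (37902 and 34352, 0.14), as was ATP5MJ (26481 and 24909, 0.09). ATP5ME, read by cross-hybridising probe sets alone, had 9169 and 9263 (-0.01) on the brighter and 3702 and 4161 (-0.17) on the other. ATP5MG was lower on its only specific probe set (2390 and 2753, -0.20) and higher on 3 bright cross-hybridising ones (33462 and 31632 on the brightest, 0.08). ATP5F1C (gamma) had 1051 and 970 (0.12) on its only specific probe set and 0.07, 0.05 and -0.07 on the cross-hybridising ones. The probe set that names ATP5MF alone was below the floor on both arrays (27 and 73).

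Of the other 4 genes with matching symbols, 3 were measured, and all 3 had lower signals with siRNA-Tbet. ATP5IF1 encodes the inhibitor that stops the ATP synthase from running backwards when the proton gradient fails. It had the lowest ratio of the bright members, with 5481 and 6935 (-0.34, 21.0% lower) on its brightest probe set. Its other probe sets had 4536 and 4816 (-0.09) and 1017 and 1008 (0.01), so most of that difference was seen at 1 probe set. COX7A2L, a factor that joins complexes III and IV into supercomplexes, had 9526 and 9788 (-0.04). The pseudogene ATP5MC2P1 had 235 and 285 (-0.28), and the pseudogene COX6A1P1 was below the floor on both arrays.

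Probe sets of the same gene often disagreed in direction. Of the 37 members with 2 or more measured probe sets, 8 were higher on each of them, 4 were lower on each and 25 had probe sets on both sides of 0. The share on 1 side was 32.4%, against 41.4% of the 6140 genes of all kinds with several probe sets. The spread between the 2 brightest probe sets of a member (SD of the difference divided by the square root of 2) was 0.23 on the log2 scale, against 0.25 for all such genes, over pairs in which the second probe set is often dim. The 4 genes lower on each probe set were SDHC, NDUFS7, ATP5F1D and ATP5ME. The probe sets of ATP5ME are all cross-hybridising, and such probe sets are among those of SDHC and ATP5F1D. The widest gaps came from dim probe sets, such as those of NDUFB1 (17528 and 16041, 0.13, against 247 and 455, -0.88), COX5B (17355 and 16659, 0.06, against 88 and 235, -0.68 with the lower signal raised to the floor) and COX4I1 (0.17 against 833 and 500, 0.73). Of the 100 member probe sets above 1000 on both arrays none differed 1.5-fold, where 0.946% of all probe sets above that signal did. Of the other 35 measured ones 4 were higher and 4 lower by that much (22.9%, against 10.6% of all such dimmer probe sets). Among all measured probe sets 6.41% differed 1.5-fold, 2.96% higher and 3.45% lower. NDUFA11 was level on its bright probe set (12259 and 12703, -0.05) and higher on a dim one (231 and 117, 0.66 with the lower signal raised to the floor). NDUFV3 (5258 and 5535, -0.07) was higher on a dim one too (631 and 457, 0.47), as were NDUFS1 (288 and 198, 0.54) and UQCRC2 (246 and 184, 0.41).

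**Figure D4:**
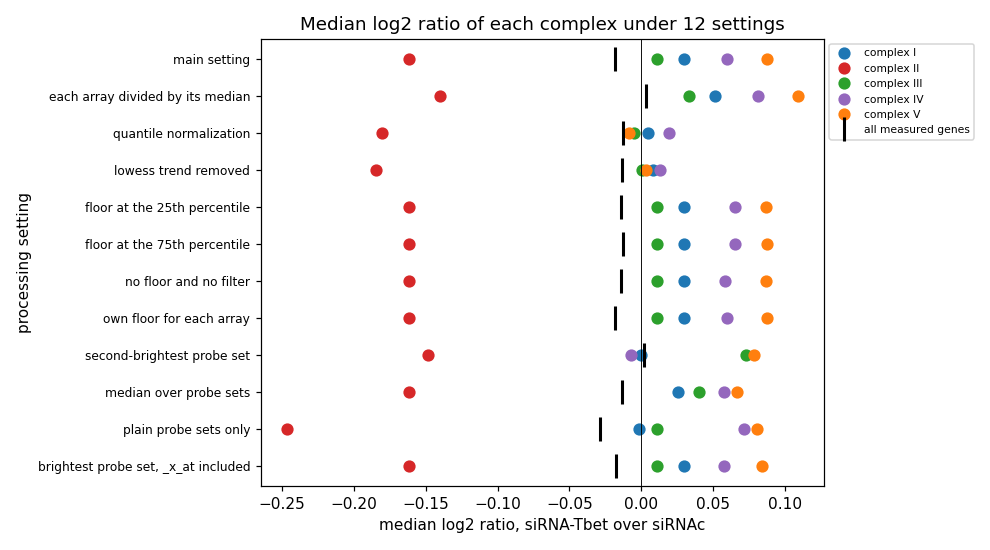
Median log2 ratio of siRNA-Tbet over siRNAc for complexes I to V (points) and for all measured genes (black ticks) under the main setting and 11 alternatives (y axis). Complex II lies between -0.25 and -0.14 under all 12, while complexes I, III, IV and V come to within 0.02 of 0 after quantile normalization or with the lowess trend removed.

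None of the 83 measured genes in 6 related lists differed 1.5-fold. The lists were subunits and carriers outside the symbol pattern, mitochondrially encoded subunits, both groups of assembly factors, biogenesis regulators and the citric acid cycle. Among all measured genes 4.96% differed that much. Of the genes above 1000 on both arrays, where most of the 83 lay, 0.826% did. Cytochrome c itself, CYCS, had signals of 38316 and 36727 (0.06), and CYC1, the cytochrome c1 of complex III, had 29209 and 30026 (-0.04). COXFA4, known as NDUFA4 and now counted with complex IV, had 20778 and 20499 (0.02), and NDUFAB1, the acyl carrier protein of complex I, had 30819 and 28231 (0.13). Of the 7 mitochondrially encoded subunits on the array, 5 were higher, with a median log2 ratio of 0.08. COX2, a catalytic subunit of complex IV, had 67485 and 59364 (0.18), near the highest signals on the arrays (69760.5 and 62672.5). In the top decile of signal, 65.7% of all genes were higher. How far the top of the signal scale enters into the 5 higher ratios was not tested. ND6, the only protein gene on the light strand of mitochondrial DNA, was lower (1408 and 2047, -0.54), as was COX3 on a cross-hybridising probe set (9443 and 11603, -0.30).

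Assembly factors and regulators lay on both sides of 0. Of 14 complex I assembly factors, 6 were higher, with a median of -0.02, and NDUFAF4 was the highest (11765 and 9890, 0.25). Of 35 assembly factors of complexes II to V, 21 were higher, with a median of 0.05. The ends of that list were COX18, which inserts COX2 into the membrane (1437 and 1130, 0.35), and ATPAF2, an assembly factor of the F1 head (265 and 367, -0.47). SDHAF3, an assembly factor of complex II, had 2682 and 3118 (-0.22), and SDHAF4 had 446 and 369 (0.27). Of 11 measured regulators of mitochondrial biogenesis, 5 were higher, with a median of -0.0056. NRF1 had 1184 and 1208 (-0.03), GABPA 1953 and 1960 (-0.0056), YY1 19379 and 21172 (-0.13), and ESRRA, a nuclear receptor that drives genes of oxidative metabolism, 2148 and 2538 (-0.24). Of 12 genes of the citric acid cycle, 7 were higher, with a median of 0.02. IDH3A, a subunit of isocitrate dehydrogenase, had 6764 and 4954 (0.45), and the succinyl-CoA ligase subunits SUCLG1 and SUCLG2 went opposite ways (7818 and 6388, 0.29, and 2465 and 3012, -0.29).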

How the data were processed

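The deposited values are 1 linear signal intensity for each of 54675 probe sets and array. The authors made these intensities with MAS5, per the submitters' processing notes, with a version not given in the sources used here. The trimmed mean (2% off each end) was 1000 on both arrays, so no further scaling was applied. MAS5 subtracts mismatch signal, which makes dim values noisy. Detection calls and scanner files were not used here.

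Of the probe sets, 41091 have 1 gene in the platform table, 1801 several and 11721 none, and 62 are controls. All 78 member symbols matched RefSeq by Entrez number. The brightest measured probe set stood for a gene, and those whose suffix _x_at marks possible cross-hybridisation were passed over where another was measured. A common floor replaced the floors of the single arrays (144.2 and 146.4), which can turn the sign of a ratio. Ratios are described by medians, counts and shares past 1.5-fold, 1.2-fold and 2-fold, beside those of all measured genes, with no test. The smoothing was done with statsmodels 0.14.6 (lowess span 0.3), and the rest with pandas 2.3.3 and numpy 2.4.6. The code was tested on simulated data.

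The members, lists and motifs were chosen with earlier results of these data known. Every member could be named. Signals are given for the brightest and the most different members of each complex, members past 1.5-fold, members whose probe sets disagree, tissue isoforms and catalytic subunits. Outside the family, TBX21, CYC1, CYCS and up to 3 genes of each list with the largest ratios were named. NRF1, GABPA, SDHAF3, SDHAF4, COXFA4, COXFA4L3 and the marker CD34 are outside that rule and were added after their values were seen. COXFA4 (NDUFA4) does not match the symbol pattern and was not counted with complex IV.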

Additional observations from a re-analysis of the deposited data

Results flagged for a closer look

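The array carries probe sets for bacterial transcripts (dap, lys, phe, thr and trp) that can be spiked into RNA before labelling as poly(A) controls, and these lie outside every comparison made here. All 27 of them were higher on the siRNA-Tbet array, by a median of 5.36-fold and a range of 3.61-fold to 15.2-fold. The 18 hybridisation control probe sets had a median ratio of 0.999, with 8 higher. The labels do not say how the controls were added, and the part of this difference in the ratios of the respiratory chain genes was not tested.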

How the results depend on the processing

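With 1 array per group, no array could be left out, and no paired analysis was possible because the labels give no replicate numbers shared between groups. The family median of 0.05 was 0.07 with each array divided by its median, 0.0013 with the lowess trend removed, 0 after quantile normalization, 0.0045 with second-brightest probe sets and 0.02 with plain probe sets. The median of all genes was -0.02 as deposited and 0.0034 with each array divided by its median. The direction of a complex turned after quantile normalization for complexes III (-0.0053) and V (-0.0084), with second-brightest probe sets for complexes I (-8.5e-05, 16 genes) and IV (-0.0070, 5 genes), and with plain probe sets for complex I (-0.0014). Complex II stayed below 0 under every alternative run. The count of members differing 1.5-fold was 4 with the floor at the 25th percentile, 0 at the 75th and 6 with no floor, 5 with second-brightest and 7 with plain probe sets. It was 7 at 1.2-fold and 1 at 2-fold. Members higher with siRNA-Tbet numbered 19 of the 37 that have a second probe set. COX4I2 and COX6A2 made up the 1.5-fold count under scaling, lowess and quantile alternatives alike. With the floor at the 75th percentile neither was measured, and with it at the 25th or removed 21.0% and 29.4% of all genes passed 1.5-fold. ATP5MG changed side, from -0.20 to 0.08, with cross-hybridising probe sets included.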

Other observations

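COXFA4L3 is a paralogue of the complex IV subunit COXFA4, known from inflamed cells, and its symbol lies outside the pattern that chose the family. It was looked at after its values were seen. Its signals were 309 (siRNA-Tbet) and 602 (siRNAc), 1.95-fold lower (log2 ratio -0.96), while COXFA4 had 20778 and 20499 (0.02). COXFA4L3 was read by 1 probe set at a dim signal, and 2.92% of all measured genes were lower by 1.5-fold or more.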
